A study of Mus musculus with 6 samples.

Results

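The transcripts of 10 receptors of the TNF receptor superfamily were followed in CD4+CD25+ regulatory T cells (Treg) of mice, a T cell subset that restrains immune responses, with and without the deacetylase HDAC6. The members were Tnfrsf18, Tnfrsf4, Tnfrsf9, Cd27, Tnfrsf1b, Tnfrsf14, Fas, Tnfrsf1a, Tnfrsf25 and Tnfrsf10b, taken by name, and every probe set (a group of array probes for 1 transcript) that named 1 of them alone was used. These 10 of 12393 named genes had 14 of 22626 probe sets, with 3 for Tnfrsf9, 2 each for Tnfrsf1b and Tnfrsf10b, and 1 for each other gene; 0 probe sets named a member together with other genes. One group was Treg of HDAC6 knock out mice and the other Treg of wild type C57BL6 mice, 3 arrays each. The cells had been separated with magnets, the labels gave a strain for the wild type alone, and the age of the mice, the construction of the knockout allele and whether an array held 1 animal or a pool were not given in the sources used here. The samples were described as independent, so the p-values measure the spread between these samples.

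Receptors of this superfamily are membrane proteins with cysteine-rich ectodomains that bind trimeric ligands. One branch, here Tnfrsf18 (GITR), Tnfrsf4 (OX40), Tnfrsf9 (4-1BB), Cd27, Tnfrsf1b (TNFR2) and Tnfrsf14 (HVEM), has no death domain and recruits TRAF adaptors that switch on NF-κB. The other, here Fas, Tnfrsf1a (TNFR1), Tnfrsf25 (DR3) and Tnfrsf10b (DR5), carries a cytoplasmic death domain that can engage FADD or TRADD and lead to caspase activation or to NF-κB. Treg are known for high GITR, OX40 and TNFR2, and signals through TNFR2, DR3, OX40 and 4-1BB are known to support or modulate their growth.

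The values are on the log2 scale as deposited, so a difference of 1 is a doubling, and the medians of the 6 arrays lay between 6.22 and 6.27. Brightness depends on the probes, so levels were compared between arrays and not between probe sets. The Treg transcription factor Foxp3 read 10.26 (SD 0.06, n = 3) in wild-type and 10.32 (SD 0.12, n = 3) in knockout arrays, and the brighter probe set of Il2ra, the CD25 chain used for the separation, 9.43 (SD 0.18, n = 3) and 9.44 (SD 0.14, n = 3). Of the 6 T cell and Treg markers listed, 5 were higher in the knockout and 1 lower, with a median difference of 0.11. Beside Foxp3 and Il2ra these were Cd4 (0.21), Ikzf2 (0.20), Ctla4 (0.16) and Cd3e (-0.09). The arrays of the genotypes overlapped for all 6. The part of these differences in the receptor values was not tested. Hdac6 itself read 8.54, 8.23 and 8.42 in the wild-type arrays and 7.54, 7.86 and 7.64 in the knockout arrays, lower in every knockout array; where its probe set lies relative to the deletion is not given in the sources used here.

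The promoters of Tnfrsf1b, Tnfrsf4 and Tnfrsf14 are shown because these genes had the smallest p-values among the members, and those of Tnfrsf9 and Tnfrsf18 because they held the members' matches to an NF-κB type motif, the pathway these receptors act through. Each run is 300 bases, 250 before and 50 after a start site, 5′ to 3′ on the gene's strand, from RefSeq (GRCm38.p6), and 9 of the 10 members had an entry. Capitals mark matches to GGANTTNCC (NF-κB type), TGANTCA (AP-1 type) or TTCNNNGAA (STAT type), searched on both strands; the last pair read alike on both strands, and no matches overlapped in these runs.
Tnfrsf1b, chr4:145246821-145247120, minus strand: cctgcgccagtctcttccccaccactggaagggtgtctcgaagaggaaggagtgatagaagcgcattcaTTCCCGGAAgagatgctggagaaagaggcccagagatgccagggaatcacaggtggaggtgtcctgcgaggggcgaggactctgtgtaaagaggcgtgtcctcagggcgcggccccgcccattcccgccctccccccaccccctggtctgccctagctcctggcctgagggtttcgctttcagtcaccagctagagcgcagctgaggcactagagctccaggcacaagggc
Tnfrsf9, chr4:150927749-150928048, plus strand: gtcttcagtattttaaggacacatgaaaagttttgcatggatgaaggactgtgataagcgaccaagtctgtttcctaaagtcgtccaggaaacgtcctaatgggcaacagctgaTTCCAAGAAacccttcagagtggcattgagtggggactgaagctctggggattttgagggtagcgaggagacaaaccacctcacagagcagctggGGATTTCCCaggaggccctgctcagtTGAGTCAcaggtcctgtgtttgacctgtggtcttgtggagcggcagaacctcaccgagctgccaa
Tnfrsf18, chr4:156026072-156026371, plus strand: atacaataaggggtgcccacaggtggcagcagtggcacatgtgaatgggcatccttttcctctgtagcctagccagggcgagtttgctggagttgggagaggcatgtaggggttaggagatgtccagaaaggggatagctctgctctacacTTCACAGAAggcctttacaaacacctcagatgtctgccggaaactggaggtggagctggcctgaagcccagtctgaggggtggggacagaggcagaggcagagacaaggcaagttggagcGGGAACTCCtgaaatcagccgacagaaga
Tnfrsf4, chr4:156013445-156013744, plus strand: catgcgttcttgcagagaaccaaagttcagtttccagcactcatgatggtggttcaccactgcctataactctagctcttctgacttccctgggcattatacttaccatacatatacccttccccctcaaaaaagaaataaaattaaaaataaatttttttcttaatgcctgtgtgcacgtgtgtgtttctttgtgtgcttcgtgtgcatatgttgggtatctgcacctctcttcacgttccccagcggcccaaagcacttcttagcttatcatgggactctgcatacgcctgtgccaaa
Tnfrsf14, chr4:154928028-154928327, minus strand: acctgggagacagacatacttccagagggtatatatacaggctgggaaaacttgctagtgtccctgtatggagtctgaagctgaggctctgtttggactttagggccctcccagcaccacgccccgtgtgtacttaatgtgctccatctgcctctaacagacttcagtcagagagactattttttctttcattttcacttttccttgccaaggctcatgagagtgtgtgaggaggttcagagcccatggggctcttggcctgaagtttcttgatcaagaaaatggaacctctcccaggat

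The Tnfrsf9 run held the NF-κB type match GGATTTCCC from base 210, the AP-1 type match TGAGTCA from base 236 and the STAT type match TTCCAAGAA from base 115, counted from 1 at the 5′ end. The other RefSeq start of Tnfrsf9 held none of the 3 motifs. Tnfrsf18 held an NF-κB type match on the opposite strand, read here as GGGAACTCC from base 272, and a STAT type match, TTCACAGAA from base 152. Tnfrsf1b held 1 STAT type match, TTCCCGGAA from base 70, and Tnfrsf4 and Tnfrsf14 held no match. Over all 11 entries of the members, 6 held a match of any type. In the runs not shown, Tnfrsf25, Tnfrsf1a and Fas held a STAT type match and Fas also an AP-1 type match. Of all 32851 promoter runs, 3.95% held the NF-κB type motif, 7.81% the AP-1 type and 8.30% the STAT type. Some of the runs shown were picked for their matches, so these shares give no comparison for them. A match describes the letters and not a bound site.

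None of the 14 receptor probe sets passed the test across all probe sets, and the receptors showed patterns of different kinds. The brighter probe set of Tnfrsf1b and that of Tnfrsf4 read higher in the knockout with no overlap between arrays, beside 7.68% of all probe sets. They differed by 0.47 and 0.27 on the log2 scale, and the dimmer Tnfrsf1b probe set overlapped. Among Tnfrsf18, Cd27 and the 4 death-domain receptors the largest difference in size was -0.14, for Tnfrsf25. Tnfrsf14 and Tnfrsf9 varied most among the wild-type arrays. With limma's moderated test, 0 of 14 had an adjusted p under 0.05 (Benjamini-Hochberg over 22626 probe sets), where 44 probe sets or 0.194% of all did. An unadjusted p under 0.05 was reached by 3 of 14 (Tnfrsf1b, Tnfrsf4 and Tnfrsf14), beside 10.6% of all probe sets. The unmoderated test called 0 of 14 after adjustment, and limma with trend and robust settings called 1, Tnfrsf1b (adjusted p = 0.0311), beside 0.65% of all probe sets. Of the 14, 10 were higher and 4 lower in the knockout, with a median difference of 0.04 beside 0.00 over all probe sets. In such bulk samples fewer cells of a type and less RNA per cell cannot be told apart.

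**Figure D1:**
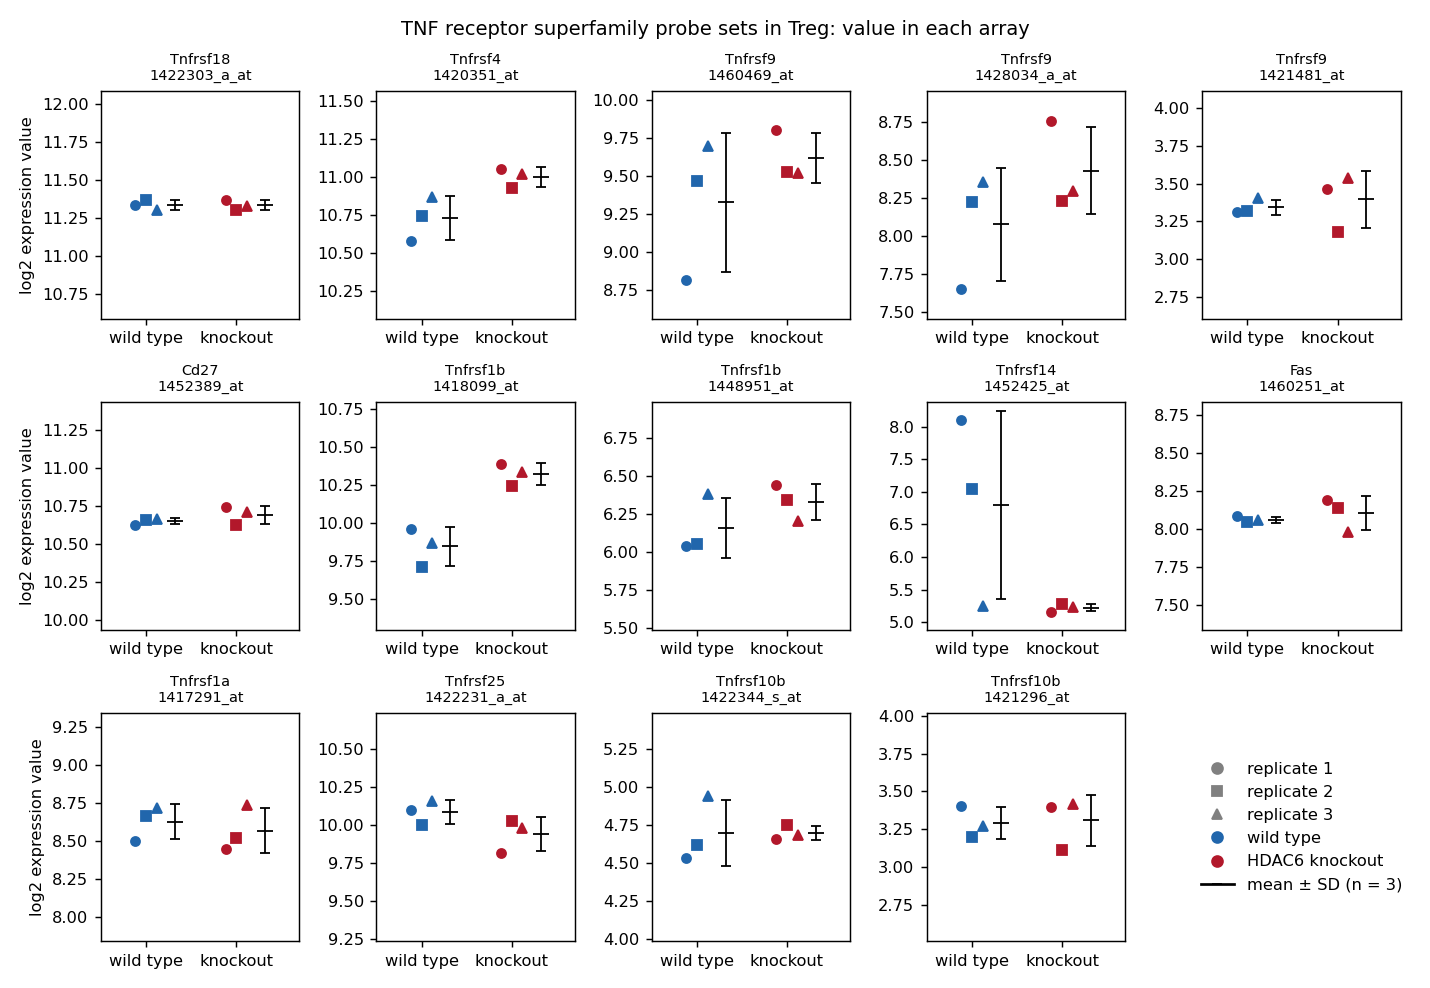
Value of each receptor probe set on the log2 scale (y axis) in the 3 wild-type (blue) and 3 HDAC6 knockout (red) arrays, with marker shape for the replicate and black bars for mean ± SD (n = 3). Every panel spans 1.5 log2 units except that of Tnfrsf14, which spans 3.5; the red points lie above all blue points for Tnfrsf1b 1418099_at and Tnfrsf4, and the wild-type points of Tnfrsf14 run from 5.25 to 8.10.

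Tnfrsf1b encodes TNFR2, the TNF receptor through which membrane TNF expands Treg. Its brighter probe set (1418099_at) read 9.96, 9.71 and 9.87 in the wild-type arrays and 10.38, 10.24 and 10.34 in the knockout arrays. The lowest knockout array stood 0.28 above the highest wild-type array. The difference was 0.47 (SE 0.09, 95% interval 0.27 to 0.68), or 1.39-fold, with limma's adjusted p at 0.118. The dimmer probe set (1448951_at) read 6.04, 6.05 and 6.38 in the wild-type arrays and 6.44, 6.34 and 6.20 in the knockout arrays, so the genotypes overlapped, through wild type replicate 3. It differed by 0.17 (SE 0.12, adjusted p = 0.662). Both probe sets were therefore higher on average in the knockout, and the separation was seen in the brighter one.

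Tnfrsf4 encodes OX40, a costimulatory receptor of activated T cells that Treg carry constantly. It read 10.58, 10.74 and 10.87 in the wild-type arrays and 11.05, 10.93 and 11.02 in the knockout arrays. The genotypes did not overlap, by a margin of 0.06 between knockout replicate 2 and wild type replicate 3. The difference was 0.27 (SE 0.09, 95% interval 0.06 to 0.48, adjusted p = 0.356), or 1.21-fold. Probe sets with every knockout array above every wild-type array made up 2 of the 14 receptor probe sets and 7.68% of all; those with every knockout array below made up 0 of 14 and 9.48% of all.

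Tnfrsf18 encodes GITR, a receptor used to recognise Treg, and is the next protein-coding gene after Tnfrsf4 on chromosome 4 by RefSeq. It read 11.33, 11.37 and 11.30 in the wild-type arrays and 11.37, 11.30 and 11.33 in the knockout arrays. The arrays of both genotypes covered nearly the same range, and the difference was -0.00 (SE 0.06, 95% interval -0.15 to 0.15). That interval holds changes of up to 1.11-fold in either direction. The difference between the 2 neighbours' changes was not tested. Cd27, the receptor for CD70 that marks resting and memory lymphocytes, was as even: it read 10.63, 10.66 and 10.66 in the wild-type arrays and 10.74, 10.63 and 10.71 in the knockout arrays. Its difference was 0.04 (SE 0.07, 95% interval -0.11 to 0.20, adjusted p = 0.862).

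Tnfrsf9 encodes 4-1BB, a receptor induced by antigen stimulation and abundant on activated Treg. Its brightest probe set (1460469_at) read 8.82, 9.47 and 9.70 in the wild-type arrays and 9.81, 9.53 and 9.52 in the knockout arrays. Wild type replicate 1 was the low array, and the other wild-type arrays lay within or next to the knockout range. The second (1428034_a_at) gave the same picture, with 7.65, 8.22 and 8.36 in wild type and 8.76, 8.23 and 8.30 in the knockout. Knockout replicate 1 was the highest array in both. The differences were 0.29 (SE 0.22) and 0.35 (SE 0.21), with limma's adjusted p at 0.694 and 0.623. Without wild type replicate 1 they were 0.03 and 0.14, and without knockout replicate 1 they were 0.20 and 0.19. The third probe set (1421481_at) stayed between 3.18 and 3.54 in all 6 arrays, under their lower quartiles (4.14 to 4.25), and differed by 0.05 (SE 0.10). Dim probe sets of this kind can miss a change, and no detection calls were used here.

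**Figure D2:**
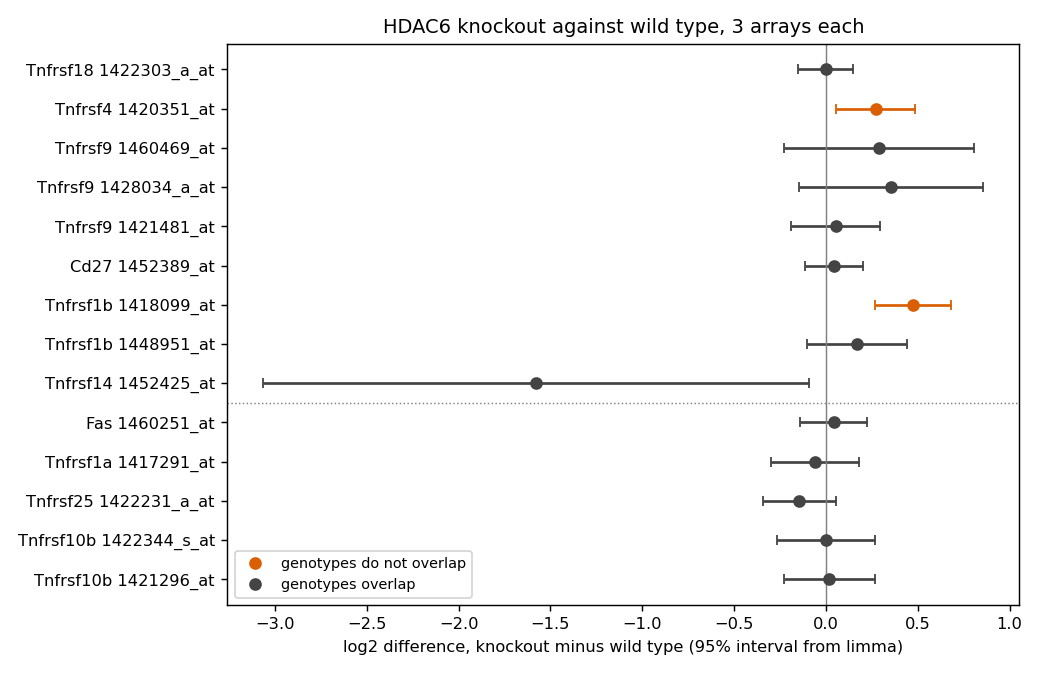
Log2 difference, knockout minus wild type, of each receptor probe set (x axis) with limma's 95% interval; receptors without a death domain are above the dotted line and those with one below it. The intervals of Tnfrsf1b 1418099_at, Tnfrsf4 and Tnfrsf14 leave out 0 before adjustment over all probe sets, and orange marks the 2 probe sets whose genotypes do not overlap.

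Tnfrsf14 encodes HVEM, a receptor for LIGHT that also binds the inhibitory receptor BTLA. Its 1 probe set read 8.10, 7.05 and 5.25 in the wild-type arrays and 5.16, 5.28 and 5.23 in the knockout arrays. The knockout arrays agreed within 0.12, whereas wild type replicate 3 sat at the knockout level and replicates 1 and 2 stood 7.25-fold and 3.48-fold above it. The difference of means was -1.58 (SE 0.63, 95% interval -3.06 to -0.09, adjusted p = 0.437), the largest in size among the members and the least precise. It was -0.93 without wild type replicate 1 and -2.35 without wild type replicate 3, where limma's adjusted p was 0.0542. The range of 2.86 among the wild-type arrays ranked 24 of 22626 probe sets.

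Transcripts with a profile near that of Tnfrsf14 were looked up. By the root mean square difference of centred log2 values over the 6 arrays, the 3 genes nearest to Tnfrsf14 were Apoe (0.27), which encodes apolipoprotein E, the Hippo pathway kinase gene Lats1 (0.50) and Mxra8 (0.54), among 20379 probe sets of other single genes; this search was chosen after the values were seen. The Apoe probe set read 8.56, 7.94 and 6.20 in the wild-type arrays and 6.19, 6.50 and 6.51 in the knockout arrays. Being chosen for likeness to Tnfrsf14 fixes that such genes step in a similar way between the wild-type arrays, so no test is given. Lats1 was dim, at 3.55 to 3.75 in the knockout arrays and wild type replicate 3, under the arrays' lower quartiles (4.14 to 4.25). Of the 20 nearest protein-coding genes around Tnfrsf14, 10 on each side, 13 were measured, 0 passed limma's test after adjustment (0.169% of all genes did) and 0 had an unadjusted p under 0.05 (11.2% of all genes). In 3 of the 13 wild type replicate 1 was the highest of the 6 arrays, beside 16.4% of all genes. Those 3 were Arhgef16 and both direct neighbours, Prxl2b and Hes5. Prxl2b read 6.72, 6.11 and 6.19 in wild type and 5.96 to 6.01 in the knockout, a difference of -0.35 (SE 0.16).

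B cells also express HVEM. Among the wild-type arrays their markers Ms4a1, Cd79b and Cd79a were lowest in replicate 3, whereas the dim marker Pax5 was highest there (4.58, 4.77 and 4.86). Of the 4 measured B cell markers 2 were higher in the knockout, Cd79a (0.14) and Pax5 (0.17), and 2 lower, Cd79b (-0.32) and Ms4a1 (-1.13). Ms4a1, which encodes CD20, read 9.04, 9.44 and 8.38 in wild type and 7.40, 8.11 and 7.96 in the knockout. The summed linear level of the 4 markers was 1339, 1508 and 992 in wild type replicates 1, 2 and 3, and between 732 and 1093 in the knockout. Ms4a1 and this sum were highest in wild type replicate 2, and Tnfrsf14 in replicate 1. The lowest marker value was 4.58. The part of these transcripts in the Tnfrsf14 result was not tested.

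**Figure D3:**
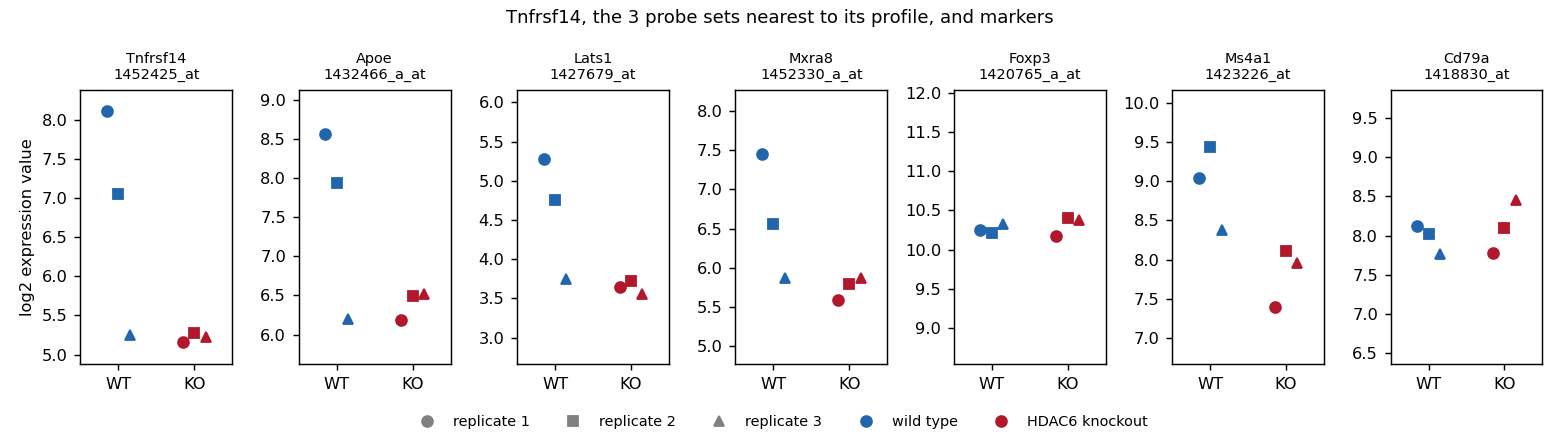
Log2 values (y axis, each panel spanning 3.5 units) of Tnfrsf14, of the 3 genes nearest to its profile and of Foxp3, Ms4a1 and Cd79a in the wild-type (WT, blue) and knockout (KO, red) arrays, with marker shape for the replicate. Wild type replicate 3 lies with the knockout arrays for Tnfrsf14 (5.25) and Apoe (6.20), while Foxp3 stays between 10.18 and 10.40 in all arrays.

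The receptors with a death domain showed no separation of genotypes. Fas, the receptor that removes activated lymphocytes, read 8.09, 8.05 and 8.06 in the wild-type arrays and 8.19, 8.14 and 7.98 in the knockout arrays, a difference of 0.04 (SE 0.08, 95% interval -0.14 to 0.22). Tnfrsf1a, the receptor for soluble TNF on most cell types, read 8.50, 8.67 and 8.72 in the wild-type arrays and 8.45, 8.52 and 8.74 in the knockout arrays. Its difference was -0.06 (SE 0.10, 95% interval -0.30 to 0.18), so the 2 TNF receptors had values of opposite sign, and the difference between them was not tested. Tnfrsf25, the receptor for TL1A, read 10.10, 10.001 and 10.16 in the wild-type arrays and 9.82, 10.03 and 9.98 in the knockout arrays. It differed by -0.14 (SE 0.08, 95% interval -0.34 to 0.05, adjusted p = 0.605), with the lowest wild-type array inside the knockout range. Tnfrsf10b, the mouse death receptor for TRAIL, was dim: its probe sets read 4.53 to 4.94 (1422344_s_at) and 3.12 to 3.42 (1421296_at) over the 6 arrays. They differed by 0.00 (SE 0.11) and 0.02 (SE 0.10).

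The spread of the receptors between arrays of a genotype was mostly that of the whole array. The median SD over the 14 probe sets was 0.11 in the knockout and 0.12 in wild type, beside 0.11 and 0.11 over all probe sets. The wild-type SD ran from 0.02 for Cd27 to 1.44 for Tnfrsf14. Knockout replicate 1 gave the highest of the 6 values in 8 of the 14 probe sets, beside 14.4% of all probe sets, and wild type replicate 1 the lowest in 5, beside 18.0%. On the genome, 6 of the 10 receptors lie on chromosome 4 and 2, Cd27 and Tnfrsf1a, on chromosome 6. The chromosome 4 members held Tnfrsf1b (0.47) and Tnfrsf14 (-1.58), the highest and the lowest difference among the members.

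The ligands were read beside their receptors. Of 20 ligands and binding partners 15 were measured, 7 higher and 8 lower in the knockout, and 0 passed (limma, adjusted over probe sets), beside 0.169% of all genes by their brightest probe set. Their median difference was -0.06, beside 0.00 over all genes. Tnfsf9, the ligand of 4-1BB, read 6.13, 6.09 and 5.77 in the wild-type arrays and 7.20, 6.61 and 6.76 in the knockout arrays. It was higher in every knockout array, with a difference of 0.86 (SE 0.17, adjusted p = 0.139). Fasl, the ligand of Fas and an effector of cytotoxic cells, read 7.73, 8.01 and 8.15 in the wild-type arrays and 7.50, 7.22 and 7.20 in the knockout arrays. It was lower in every knockout array, by -0.65 (SE 0.13, adjusted p = 0.146), and its dimmer probe set by -0.57 (SE 0.15). Grn, which encodes progranulin, a secreted protein reported to bind TNF receptors, differed by 0.37 (SE 0.09, adjusted p = 0.202), with its other probe sets at 0.42 and 0.39. Genes whose knockout arrays all lay above the wild-type arrays numbered 3 of the 15 and those all below 3, beside 8.28% and 10.3% of all genes.

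The remaining direct ligands named for the receptors gave smaller values, none past the threshold. The 2 ligands shared by Tnfrsf1a and Tnfrsf1b, Tnf and Lta, differed by -0.07 (SE 0.06) and -0.15 (SE 0.12). The value of Lta was nearer to 0 when wild type replicate 3 (-0.05) or knockout replicate 1 (-0.07) was left out. Tnfsf14, or LIGHT, the ligand of HVEM, differed by -0.28 (SE 0.12), with its dimmer probe set at -0.14; without wild type replicate 3 it differed by -0.17. Tnfsf4, the OX40 ligand, was dim and differed by -0.24 (SE 0.18). That value was -0.05 when wild type replicate 2 was left out and -0.39 when wild type replicate 1 was. Cd70, the CD27 ligand, was dim and differed by 0.25 (SE 0.13), and Tnfsf10, or TRAIL, differed by 0.24 (SE 0.14), or 0.41 without knockout replicate 2 and 0.15 without knockout replicate 3. Tnfsf18, Tnfsf15 and Btla had no probe set of their own. Cd160, from the list of ligands and binding partners, gave a larger value of -0.47 (SE 0.26), with overlap between genotypes. Its dimmer probe sets stood at -0.54 and -0.26. Receptor and ligand values stood side by side as 0.29 and 0.86 for Tnfrsf9 and Tnfsf9, 0.04 and -0.65 for Fas and Fasl, and -1.58 and -0.28 for Tnfrsf14 and Tnfsf14.

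**Figure D4:**
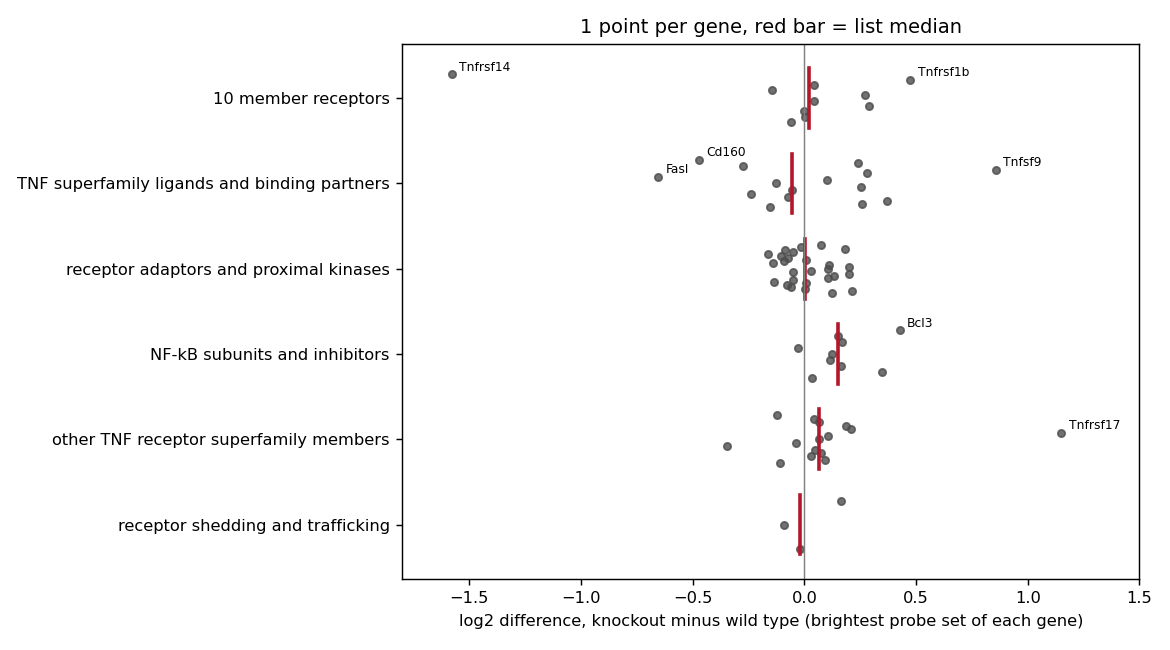
Log2 difference, knockout minus wild type (x axis), of each gene's brightest probe set for the 10 receptors and 5 lists of pathway genes; 1 point is 1 gene and the red bar is the list's median. Genes over 0.4 in size are named; Tnfsf9 (0.86) and Fasl (-0.65) lie at the ends of the ligand list, and 8 of 9 NF-κB genes lie above 0.

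Downstream of the receptors, the TRAF and death-domain adaptors and their kinases differed little. Of 34 such genes 27 were measured, 14 higher and 13 lower, with differences from -0.16 to 0.21, a median of 0.00 and 0 past the threshold. At an unadjusted p under 0.05 there were 2 of 27, beside 11.2% of all genes. Traf1, an adaptor of TNFR2 and 4-1BB that NF-κB itself induces, read 9.30, 9.38 and 9.35 in the wild-type arrays and 9.53, 9.63 and 9.48 in the knockout arrays, without overlap. It differed by 0.20 (SE 0.07, adjusted p = 0.372). Traf4, another TRAF adaptor, differed by 0.21 (SE 0.09, adjusted p = 0.451), while its dimmer probe set stood at -0.05. Tnip1, a partner of the inhibitor A20, differed by 0.20 (SE 0.10), and by 0.096 without wild type replicate 2.

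Of 11 NF-κB subunits and inhibitors 9 were measured, 8 higher and 1 lower, with a median of 0.15 and 0 past limma's threshold. At an unadjusted p under 0.05 there were 2 of 9, beside 11.2% of all genes. Bcl3, a nuclear partner of NF-κB subunits, read 7.89, 8.03 and 8.22 in the wild-type arrays and 8.41, 8.52 and 8.49 in the knockout arrays. It was higher in every knockout array, by 0.43 (SE 0.10, adjusted p = 0.174). Relb, the subunit of the non-canonical pathway that these receptors engage, read 8.65, 8.62 and 8.97 in the wild-type arrays and 9.06, 9.04 and 9.18 in the knockout arrays. It too did not overlap, with a difference of 0.35 (SE 0.11, adjusted p = 0.324). Nfkbie, an inhibitor, differed by 0.15 (SE 0.07), and Rela, the member that was lower, by -0.03. In total, 4 of the 9 had every knockout array above every wild-type array, beside 8.28% of all genes. The list was chosen with earlier results of these data known, so that share is not an independent comparison.

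Among 18 other receptors of the superfamily 15 were measured, 11 higher and 4 lower, with a median of 0.07 and 0 past the threshold. At an unadjusted p under 0.05 there were 2 of 15, near the 11.2% of all genes. Tnfrsf17, the plasma cell receptor BCMA, read 4.91, 5.49 and 5.51 in the wild-type arrays and 6.48, 5.87 and 6.996 in the knockout arrays, a difference of 1.15 (SE 0.29, adjusted p = 0.228). Tnfrsf21, a death-domain receptor, differed by -0.35 (SE 0.10, adjusted p = 0.262), its dimmer probe set by -0.02, and Tnfrsf8, or CD30, the next gene to Tnfrsf1b, by 0.19 (SE 0.10). Plasma cell markers were higher on the same arrays: all 4 measured, Tnfrsf17 among them, were above wild type in every knockout array, beside 8.28% of all genes. Of the 4, Igha, an immunoglobulin heavy chain gene, passed limma's test with a difference of 1.81 (adjusted p = 0.00799). The summed linear level of the 4, mostly Igha and Jchain, was 32310 to 35062 in the knockout and 11586 to 16623 in wild type. Their part in the values of Tnfrsf1b, Tnfrsf4, Tnfrsf17 and the NF-κB genes was not tested. The summed levels of 6 myeloid markers (269 to 362 in the knockout, 302 to 462 in wild type) and of 3 NK cell markers (919.9 to 1220 and 958.9 to 1400.3) overlapped between genotypes. Those of 2 CD8 T cell markers did not (151 to 163 and 172 to 196), with Cd8b1 at -0.37 and Cd8a at 0.25.

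Of the sheddases that cut these receptors from the membrane, Adam17, which releases both TNF receptors, differed by -0.09 (SE 0.08) and Adam10 by -0.02 (SE 0.07). The dimmer probe sets stood at -0.20 and -0.07 for Adam17 and at -0.22 and 0.03 for Adam10. Timp3, an inhibitor of Adam17, was dim, at 3.77 to 4.06, and differed by 0.16 (SE 0.08). Over the 5 pathway lists together 69 of 87 genes were measured and 0 passed, with 10 at an unadjusted p under 0.05 beside 11.2% of all genes.

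The receptor with the smallest p, Tnfrsf1b (1418099_at), was also compared by profile with 10920 probe sets of other single genes whose mean was at least 6. The 3 nearest by root mean square difference of centred log2 values over the 6 arrays were Susd2 (0.040), Tspan13 (0.051) and Cyp4v3 (0.053), genes of a membrane protein with sushi domains, a tetraspanin and a cytochrome P450. They were chosen for their likeness to a profile with a difference of 0.47, which fixes that their own differences (0.45, 0.41 and 0.40) lie near it, so no test is given.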

How the data were processed

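Total RNA of the 6 samples was amplified and biotin-labelled for 1-colour arrays, per the labels' protocols. The deposited table held 22690 probe sets as log2 values, normalized by the authors with RMA (background correction, quantile normalization and probe summary; version not given), per the submitters' processing notes; the log2 scale was taken from the range. RMA compresses differences of dim and near-saturated probe sets. After removal of 64 control probe sets, limma 3.58.1 in R 4.3.3 (lmFit, eBayes, genotype as the only term) was run on 22626 probe sets with adjustment by Benjamini-Hochberg at a threshold of 0.05; it was tested on simulated data. No purity, slide or scan record was used here, so no batch could be tested, and the number of arrays limits the precision. Names came from the platform annotation, updated by gene ID; 20380 probe sets carried 1 symbol, 691 several and 1555 none, and 20351 matched RefSeq (GRCm38.p6). Pathway genes were represented by their brightest probe set. Named were all members, the direct ligands, and the 3 genes of smallest p per list. Other probe sets of list genes, Cd160, the B cell and CD8 genes, the T cell markers apart from Foxp3 and Il2ra, and the neighbours of Tnfrsf14 were named after their values were seen. The members, the lists and the motifs were chosen with earlier results of these data known. Plots used matplotlib 3.10.9 (Python 3.11.15).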

Additional observations from a re-analysis of the deposited data

How the results depend on the processing

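Of the 14 receptor probe sets 8 kept their direction under all 15 other fits in which they were tested (quantile normalization, median centring, a replicate block, trend and robust settings, an unmoderated test, array weights, 2 filters on dim probe sets, 1 probe set per gene, and leaving out each array); these were Tnfrsf4, Tnfrsf14, Tnfrsf25, Cd27, both of Tnfrsf1b and the brighter pair of Tnfrsf9. The number past the threshold stayed at 0 except with trend and robust settings, where it was 1 (Tnfrsf1b, adjusted p = 0.0311, with alternatives up to 0.317); the cause was not tested. The replicate block left 0 past the threshold, and a threshold of 0.1 also gave 0; leaving out 1 array gave 0 in each case. The replicate numbers did not pair the arrays: across probe sets, deviations from the group means correlated at 0.22, -0.09 and 0.10 for numbers 1, 2 and 3, and not every array correlated best with its own number. With the block 27 of all probe sets passed in place of 44.

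Values near 0 changed sign. Tnfrsf18 was 0.00099 with median centring. With quantile normalization the Tnfrsf10b probe sets were -0.0083 (1421296_at) and -0.029 (1422344_s_at). With array weights Tnfrsf10b 1421296_at was -0.034 and Tnfrsf9 1421481_at -0.013. Leaving out 1 array, values ran from -0.020 to 0.015 for Tnfrsf18, -0.0033 to 0.10 for Fas, -0.14 to 0.00048 for Tnfrsf1a, -0.035 to 0.12 and -0.082 to 0.12 for Tnfrsf10b 1421296_at and 1422344_s_at, -0.019 to 0.16 for Tnfrsf9 1421481_at and -0.041 to 0.0099 for Adam10. Of 21 named pathway genes the other 20 kept their direction under all alternatives run. Dim probe sets limit what can be seen of Tnfrsf10b, Tnfsf4 and Cd70.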
